A study of Mus musculus with 2 samples.

Results

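Molecular chaperones of the cytosol, the nucleus and the mitochondria were followed by the transcript levels of 46 genes, taken by symbol from a deposited table of 16803 genes. The rule names symbols and sets no threshold on a measured value, and chaperones of the endoplasmic reticulum (ER) were left out of it. All 46 symbols were in the table, and 44 had the 10 reads over both libraries that the test required. The genes cover 2 heat shock factors, 6 chaperones of the HSP70 family, 3 of the HSP110 family, 3 of the HSP90 family, 1 small heat shock protein, the 2 genes of the mitochondrial chaperonin, 7 J-domain proteins, the 8 subunit genes of the cytosolic chaperonin CCT, 4 co-chaperones of HSP70, 6 of HSP90, and 4 prefoldin subunits.

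Total RNA was sequenced from NE4C cells, an established mouse neural stem cell line, in 1 library of a normal culture (control) and 1 library of a culture that had received HTL. HTL is homocysteine thiolactone, a reactive metabolite of homocysteine that attaches to lysine residues of proteins. Both cultures were grown in Eagle MEM on poly-L-lysine, and how much HTL was given, and for how long, is not in the labels. The paper's methods describe a low-serum step before HTL was added, and whether either sequenced culture had it is not stated. If only 1 culture had it, its part could not be told apart from that of HTL. The comparison asks which transcripts differ between treated and untreated cells of this line. With 1 library per condition there is no replicate check, so every interval and p-value below covers counting error between these libraries and not the spread between cultures. In bulk RNA, fewer cells with a transcript and less of it per cell cannot be told apart.

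As background, chaperones bind proteins that are not, or no longer, folded. HSP70 proteins take up exposed stretches of a client with the help of J-domain proteins, which deliver clients and start the hydrolysis of ATP, and of exchange factors such as the HSP110 and BAG proteins, which release it. HSP90 acts later, on nearly folded clients such as kinases and steroid receptors, with co-chaperones that time its cycle. Chaperonins are closed barrels: CCT folds actin and tubulin, which prefoldin hands to it, and Hspd1 with its lid Hspe1 folds proteins imported into the mitochondrial matrix. When proteins unfold in the cytosol, heat shock factor Hsf1 binds heat shock elements and induces a set of these genes. The ER has its own chaperones, controlled by a separate unfolded protein response.

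The control library held 10350646 reads and the HTL library 9102057 reads over all genes. Ratios are HTL over control, as log2 of a gene's share of its library. Calls needed an adjusted p no larger than 0.001 in an exact binomial test over all 13442 genes tested, and a log2 ratio of 1 or more in either direction. The words higher and lower "by the adjusted p alone" drop the size cutoff, and "rose" and "fell" are used of genes past one of these rules. The median gene had a log2 ratio of -0.14, and scaling by trimmed mean of M-values (TMM), upper quartile or median of ratios would raise each log2 ratio by 0.13, 0.093 or 0.14. The median also went from 0.14 to -0.38 between the shortest and the longest of 10 equal groups of genes by transcript length, and the part of transcript length in the results was tested only by the centring given below. Of 8 neural stem cell markers, Nes had 1617 reads in the control and 1365 in the HTL library, Sox2 had 894 and 285, Vim had 1487 and 648, Prom1 had 443 and 555, Cdh2 had 831 and 566, Pax6 had 69 and 66, Msi1 had 617 and 555, and Fabp7 had 2 in each. Sox2 and Vim were called lower, Cdh2 was lower and Prom1 higher by the adjusted p alone, and Nes, Pax6 and Msi1 were not past it. Summed reads went from 936 to 996 over 7 neuron markers, from 216 to 244 over the 4 of 7 glia markers in the table, with Gfap at 2 and 0, and from 110 to 101 over the 5 of 6 fibroblast markers in the table. Within these sums the neuron marker Dcx was called lower (88 and 29 reads), Tubb3 (296 and 396) and Stmn2 (309 and 403) were higher by the adjusted p alone, and the glia marker Aldh1l1 was called higher (21 and 56). The part of these marker levels in the chaperone results was not tested.

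Most of the 46 genes moved little. The absolute log2 ratio was under 0.5 for 40 of the 44 tested (90.9%), against 7430 of all 13442 genes tested (55.3%). The depths differ, with a median of 5290 reads over both libraries for the 44 and 386 for all genes tested, and counting error is wider at low reads. Among genes with at least 1000 reads over both libraries, a limit set after seeing the data, the share was 35 of 37 (94.6%) against 2648 of 3831 (69.1%). Dnaja4, a J-domain partner of HSP70, was the 1 gene called higher (2.27%), where 2.81% of all genes tested were called higher. None was called lower, where 7.98% of all genes were. Bag3, an HSP70 co-chaperone that directs clients to autophagy, came next at a log2 ratio of 0.91, and Hspd1, the mitochondrial chaperonin, had the lowest value at -0.83.

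Without the size cutoff, 15 of the 44 were higher by the adjusted p alone (34.1%; 14.5% of all genes) and 13 were lower (29.5%; 24.1% of all genes). With cultures assumed to vary biologically by 0.1 (coefficient of variation), 2 and 1 were left (381 and 976 of all genes tested), and none at 0.2. The split was 20 higher and 7 lower with TMM (20.1% and 18.5% of all genes), 16 and 8 with upper quartile scaling (18.3% and 19.9%), and 20 and 6 with median of ratios (20.4% and 18.2%). The 3 other scalings raise every log2 ratio, so a gene that was higher could hardly be lost under them and a gene that was lower could. The 15 that were higher in the main test were past the adjusted p under all 4: Hspa9, Hspa14, Hsph1, Hsp90ab1, Trap1, Hspb1, Dnaja4, Dnajb1, Cct4, Cct5, Cct7, Bag1, Bag3, Fkbp4 and Fkbp5. Of the 13 that were lower, 6 were past it under all 4: Hsp90aa1, Hspd1, Hspe1, Tcp1, Cct6a and Ptges3. The median log2 ratio of the 44 was -0.048, which is 0.090 above that of the median gene, and 31 of 44 lay above the median gene. Together the 46 genes held 3.05% of the control reads (95% exact Clopper-Pearson interval 3.04 to 3.06) and 2.996% of the HTL reads (2.98 to 3.01).

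**Figure D1:**
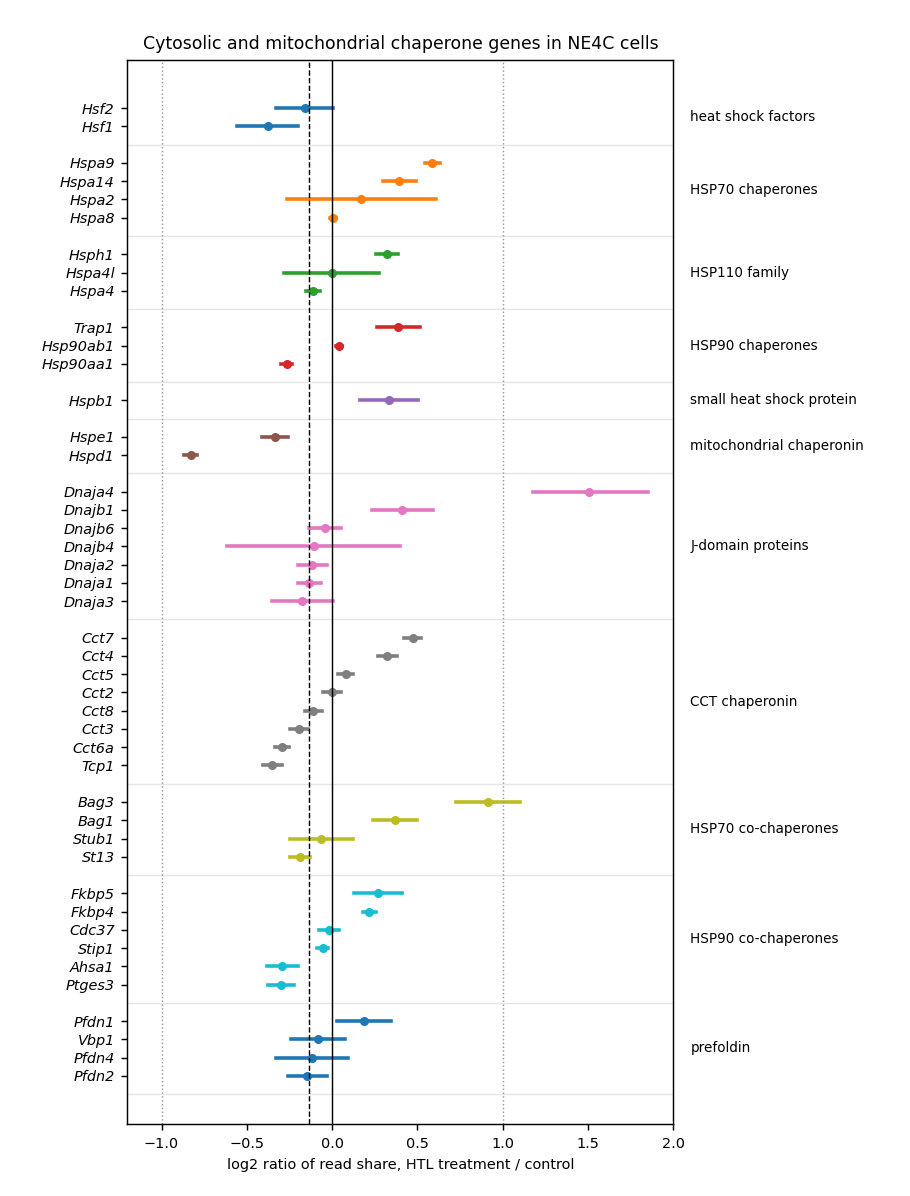
The log2 ratio of read share (HTL treatment over control) is on the x axis and the 44 tested genes, grouped by role, are on the y axis. Points are single estimates from 1 library per condition, lines are 95% counting intervals, the dashed line is the median of all genes tested (-0.14) and the dotted lines mark the size cutoff. Dnaja4 (1.51) lies past a dotted line, and 40 of the 44 points lie within 0.5 of 0.

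Promoter sequence gives a view of the same genes that does not use the reads. Windows of 300 bases, from 250 before to 50 after an annotated start, came from a RefSeq table on GRCm38.p6, which held 49 windows for 38 of the 46 genes. The other 8, with no window, were Cct4, Hsf1, Hsp90aa1, Hsp90ab1, Hspa8, Hspa9, Pfdn1 and St13. A heat shock element was searched as GAANNTTCNNGAA or its reverse complement TTCNNGAANNTTC. It was found in 6 of the 49 windows (12.2%), belonging to Dnajb6, Hspd1, Hspe1 and Hsph1, and in 198 of all 32851 windows (0.603%). By gene it was in 4 of 38 (10.5%), and in 179 of all 27025 genes (0.662%). The windows of Dnajb6 overlap and hold the same match, as do those of Hsph1, and Hspd1 and Hspe1 share their matches. An ER stress element was searched as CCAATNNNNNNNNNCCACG or its reverse complement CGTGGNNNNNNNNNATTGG. It was in none of the 49 windows, in 7 of 15 windows of ER chaperone genes (46.7%), and in 39 of all windows (0.119%).

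The 250 bases before the start are shown for Hspe1 and Dnajb6, which hold the heat shock element, and for Hspa5, the ER member of the HSP70 family, as the contrast. Capitals mark the matches. The Hspe1 window also serves Hspd1, because the start site of Hspe1 and an annotated start site of Hspd1 lie 216 bases apart on opposite strands of chromosome 1. Another Hspd1 start site in the table, at 55088243, has a window with no match. The capitals of the Hspe1 window are 2 overlapping matches that run from 89 to 72 bases before the Hspe1 start. The Dnajb6 match lies 46 to 34 bases before its start, and the ER stress element of Hspa5 lies 65 to 47 bases before its start.
Hspe1, chr1:55087898-55088147, plus strand: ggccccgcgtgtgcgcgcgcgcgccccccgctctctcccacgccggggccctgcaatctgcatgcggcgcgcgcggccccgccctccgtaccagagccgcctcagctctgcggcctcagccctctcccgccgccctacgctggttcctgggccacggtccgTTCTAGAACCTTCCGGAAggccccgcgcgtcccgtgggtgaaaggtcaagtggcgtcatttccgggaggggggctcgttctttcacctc
Dnajb6, chr5:29735648-29735897, plus strand: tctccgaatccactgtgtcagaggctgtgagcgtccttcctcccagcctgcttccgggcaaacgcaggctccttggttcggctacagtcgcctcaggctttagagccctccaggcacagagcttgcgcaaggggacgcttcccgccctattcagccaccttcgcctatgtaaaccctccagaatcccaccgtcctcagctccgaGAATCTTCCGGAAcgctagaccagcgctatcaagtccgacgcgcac
Hspa5, chr2:34771840-34772089, plus strand: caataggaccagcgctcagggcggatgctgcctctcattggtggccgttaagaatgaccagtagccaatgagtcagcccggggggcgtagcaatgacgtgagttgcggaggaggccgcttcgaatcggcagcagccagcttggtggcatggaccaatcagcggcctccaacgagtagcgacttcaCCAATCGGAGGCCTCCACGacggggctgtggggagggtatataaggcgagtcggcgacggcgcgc
The genes with these elements differed in their reads. The Hspd1 and Hspe1 pair fell, Dnajb6 was not past the adjusted p, and Hspa5 was called higher, with the values given below. Hsph1, whose match lies after its start (at base 36 or 15 by the start site used), rose. The windows of Dnaja4, Bag3, Dnajb1, Hspb1, Hspa1a and Hspa1b held no match to these letters. The search took exact letters only, so an element that departs from them would be missed. A match or its absence in these windows is a description of letters and says nothing of whether a factor was bound.

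The heat shock factors were expressed in both libraries. Hsf1, the factor that induces chaperone genes on heat, had 633 reads (30.33 FPKM) in the control and 428 reads (23.27 FPKM) in the HTL library. It fell by the adjusted p alone (log2 ratio -0.38, 95% interval -0.56 to -0.20, adjusted p = 7.46e-05 by the exact binomial test), and was not past it under TMM, upper quartile or median of ratios scaling. Hsf2, a related factor of development and stress, had 661 and 520 reads (log2 ratio -0.16, -0.33 to 0.0073, exact binomial adjusted p = 0.0950). The ratio of Hsf2 to Hsf1 reads was not past the threshold either (log2 change 0.22, interval -0.029 to 0.47, exact Fisher adjusted p = 0.0960 over 23 pairs).

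The heat-inducible HSP70 genes were at the limit of detection. Hspa1a (gene ID 193740, NCBIM37 chr17:35106144-35109069, minus strand) had 2 reads in the control and 0 in the HTL library. Hspa1b (gene ID 15511, chr17:35093381-35096183, minus strand) had 0 and 2. The deposited estimates behind these were 2.15 reads for Hspa1a in the control and 2.16 for Hspa1b in the HTL library. Hspa1l, a close relative, also has fractional estimates (72.85 in the control and 11.86 in the HTL library), so the gene these reads came from is uncertain. Summed over both genes there were 2 reads in each library, under the floor of 3 reads that a count of 0 allows (0.29 CPM in the control, 0.33 in the HTL library), so no ratio is given. By FPKM, which corrects for length, the 4 tested members of the family spanned 3.38 to 3008.47 in the control.

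Hspa8, the constitutive HSP70 of the cytosol, was among the most abundant transcripts of the cells. Hspa8 (gene ID 15481, chr9:40609067-40613283, plus strand) had 65514 reads (3008.47 FPKM, rank 5 of all genes) in the control and 57761 reads (3010.15 FPKM, rank 16) in the HTL library. Its share of reads was nearly equal in both (log2 ratio 0.0037, -0.012 to 0.020, exact binomial adjusted p = 0.730), while each of the 3 other scalings placed it past the adjusted p on the higher side. Snord14c, Snord14d and Snord14e lie in Hspa8 on the same strand, and how reads of such overlaps were assigned is not stated.

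Hspa9, the HSP70 of the mitochondrial matrix that also pulls proteins through the import channel, had the highest log2 ratio of the 4 HSP70 genes tested among the 46. It had 7520 reads (235.59 FPKM) in the control and 9929 reads (353.01 FPKM) in the HTL library, and rose 1.501-fold (log2 ratio 0.59, 0.54 to 0.63, exact binomial adjusted p = 1.69e-155). The ratio of Hspa9 to Hspa8 reads, which no library scaling can move, rose by 0.58 on the log2 scale (0.54 to 0.63). Hspa14, an HSP70 of the ribosome-associated complex, had 1551 and 1793 reads and rose as well (log2 ratio 0.39, 0.30 to 0.49). Hspa2, best known from spermatogenesis, had 91 and 90 reads (log2 ratio 0.17, -0.27 to 0.61). So 2 of the 4 tested members rose by the adjusted p alone (14.5% of all genes did) and none fell (24.1% of all genes), and 3 of 4 were higher under each of the 3 other scalings, Hspa8 being added.

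The HSP110 exchange factors went apart. Hsph1, a heat-inducible member, had 3616 and 3971 reads and rose (log2 ratio 0.32, 0.26 to 0.39, exact binomial adjusted p = 4.29e-21). Hspa4, its constitutive relative, had 10002 and 8129 reads, and its log2 ratio of -0.11 (-0.16 to -0.071) was past the adjusted p but turned to 0.017 with TMM, 0.023 with median of ratios and 0.088 after centring on transcript length. The ratio of Hsph1 to Hspa4 rose by 0.43 (0.36 to 0.51), and their FPKM ratio went from 0.485 to 0.656. Hspa4l had 228 and 200 reads (log2 ratio -0.0036, -0.28 to 0.28).

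Of the cytosolic HSP90 pair, the inducible gene fell against the constitutive one. Hsp90aa1, the inducible form, had 19524 reads (658.84 FPKM) in the control and 14277 reads (546.75 FPKM) in the HTL library and fell by 0.27 on the log2 scale (interval -0.30 to -0.23, exact binomial adjusted p = 6.33e-62). Hsp90ab1, the constitutive form, had 67749 reads (2603.60 FPKM, rank 13) and 61236 reads (2670.67 FPKM, rank 22), a log2 ratio of 0.040 (0.024 to 0.055). The ratio of Hsp90aa1 to Hsp90ab1 fell by 0.31 (-0.34 to -0.27), with an FPKM ratio of 0.253 in the control and 0.205 in the HTL library. Trap1, the HSP90 of mitochondria, had 983 and 1131 reads and rose (log2 ratio 0.39, 0.26 to 0.51), and its ratio to Hsp90ab1 rose by 0.35 (0.22 to 0.47). Exons of Trap1 overlap Dnase1 on the opposite strand, and use of strand in the counting is not stated. Hspb1, the small heat shock protein that holds unfolded clients without ATP, had 535 and 592 reads and rose (log2 ratio 0.33, 0.16 to 0.50, exact binomial adjusted p = 0.000326).

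The mitochondrial chaperonin held the largest fall among the 44 genes. Hspd1 (gene ID 15510, NCBIM37 chr1:55134679-55145087, minus strand), whose protein forms the barrel, had 15565 reads (639.59 FPKM) in the control and 7705 reads (359.31 FPKM) in the HTL library. Its level was 1.78-fold lower in the HTL library (log2 ratio -0.83, -0.87 to -0.79), short of the size cutoff, and was past the adjusted p under all 4 scalings. Hspe1 (gene ID 15528, chr1:55144976-55148151, plus strand), whose protein forms the lid, had 3566 reads (450.51 FPKM) and 2487 reads (356.57 FPKM) and fell by 0.33 on the log2 scale (interval -0.41 to -0.26, exact binomial adjusted p = 4.31e-18). Both genes were lower, by different amounts: the ratio of Hspd1 to Hspe1 reads fell by 0.49 (-0.58 to -0.41), and the FPKM ratio went from 1.42 to 1.01. The annotated first exons of these genes overlap on opposite strands. Against the summed reads of the 8 CCT genes, the sum of Hspd1 and Hspe1 fell by 0.71 (-0.75 to -0.67).

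Genes whose products work in mitochondria did not move one way. Of the 5, Hspa9 and Trap1 rose by the adjusted p alone (14.5% of all genes did) and Hspd1 and Hspe1 fell (24.1% of all genes). Dnaja3, the mitochondrial J-domain protein, had 603 and 470 reads (log2 ratio -0.17, -0.35 to 0.0023, exact binomial adjusted p = 0.0835). The summed share of reads of the 5 was 0.273% (0.270 to 0.276) in the control and 0.239% (0.235 to 0.242) in the HTL library.

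**Figure D2:**
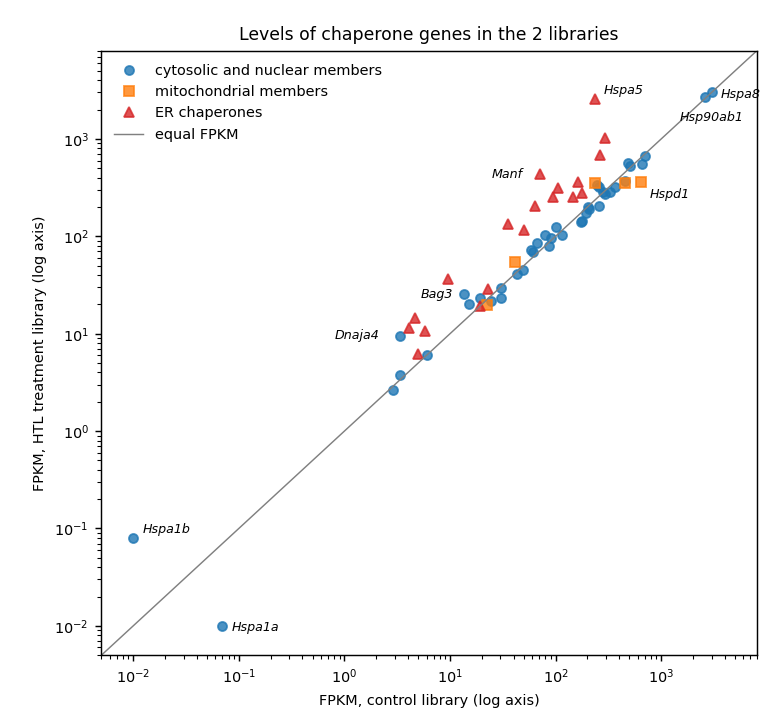
Deposited FPKM of the control library (x axis, log scale) against the HTL library (y axis, log scale) for the 46 genes, with the 5 mitochondrial ones as squares, and for 19 ER chaperones as triangles. The line marks equal FPKM: Hspa8 (3008.47 and 3010.15 FPKM) lies on it, Hspd1 (639.59 and 359.31 FPKM) below it and Dnaja4 (3.36 and 9.55 FPKM) above it, and ER chaperones such as Hspa5 (234.55 and 2560.42 FPKM) lie farther above it.

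Among the J-domain proteins, Dnaja4 (gene ID 58233, NCBIM37 chr9:54546680-54564122, plus strand) stood apart. It had 105 reads (3.36 FPKM) in the control and 263 reads (9.55 FPKM) in the HTL library, a 2.84-fold rise (log2 ratio 1.51, 1.18 to 1.85, exact binomial adjusted p = 1.38e-20). Exons of Dnaja4 overlap those of Wdr61 on the opposite strand, so reads of these genes cannot be told apart if strand was not used. Dnajb1, the main heat-inducible J-domain protein of the cytosol, had 476 and 557 reads and rose (log2 ratio 0.41, 0.23 to 0.59, exact binomial adjusted p = 1.69e-05), with part of its reads divided among similar genes by the authors' estimates.

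The abundant class A members were close to each other. Dnaja1, which serves Hspa8 in the cytosol, had 4062 and 3257 reads, and its log2 ratio of -0.13 (-0.20 to -0.066) was past the adjusted p but turned to 0.0033 with median of ratios and 0.035 after centring on length. Dnaja2, of the same class, had 2528 and 2050 reads (log2 ratio -0.12, -0.20 to -0.032, exact binomial adjusted p = 0.0132). The ratio of Dnaja1 to Dnaja2 had a log2 change of -0.016 (-0.12 to 0.092), which was not past the threshold. Against Dnaja1 as the common reference, Dnaja4 rose by 1.64 (1.30 to 1.99) and Dnajb1 by 0.55 (0.35 to 0.74). Dnajb4 had 76 and 62 reads, so its interval is wide (log2 ratio -0.11, -0.62 to 0.39). Dnajb6, a suppressor of protein aggregation, had 1969 and 1684 reads (log2 ratio -0.040, -0.13 to 0.054), while its FPKM went from 89.85 to 95.29, so reads and length-corrected values pointed opposite ways. Over the 7 genes, 2 rose (14.5% of all genes did), 1 (Dnaja1) fell in the main test only (24.1% of all genes) and 4 were not past the adjusted p.

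The 8 subunits of CCT, which assemble into one barrel, split in direction while their summed share of reads hardly differed. Summed CCT reads were 58787 in the control, 0.568% of the library (0.563 to 0.573), and 51113 in the HTL library, 0.562% (0.557 to 0.566). By the adjusted p alone 3 subunits rose (14.5% of all genes did), 4 fell (24.1% of all genes) and Cct2 was not past it, with 5753 and 5055 reads (log2 ratio -0.0011, -0.056 to 0.054). With TMM and with median of ratios the balance was 4 higher and 2 lower, since Cct2 came past it on the higher side (log2 ratio 0.13 and 0.14) and Cct3 and Cct8 were no longer past it, and with upper quartile it was 3 and 3. Cct7 was the highest, with 6256 reads (245.89 FPKM) in the control and 7627 reads (340.21 FPKM) in the HTL library (log2 ratio 0.47, 0.42 to 0.52, exact binomial adjusted p = 1.33e-80). Tcp1, the alpha subunit, was the lowest, with 6698 reads (259.48 FPKM) and 4621 reads (204.12 FPKM) (log2 ratio -0.35, -0.40 to -0.30, exact binomial adjusted p = 5.13e-36). These ends of the range had almost the same FPKM in the control and differed in the HTL library.

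Each subunit was also set against the reads of the other 7, a ratio that no scaling of the libraries can move. The relative level rose for Cct7 (log2 change 0.56, 0.51 to 0.61), Cct4 (0.38, 0.32 to 0.43) and Cct5 (0.11, 0.067 to 0.16). It fell for Tcp1 (-0.37, -0.43 to -0.31), Cct6a (-0.33, -0.38 to -0.29), Cct3 (-0.20, -0.25 to -0.15) and Cct8 (-0.11, -0.16 to -0.054). For Cct2 it was not past the threshold (0.017, -0.041 to 0.075, exact Fisher adjusted p = 0.624). Over the 8 genes the highest FPKM was 2.05 times the lowest in the control and 2.60 times in the HTL library, while the coefficient of variation was 29.6% and 28.9%. Of the 7 subunits past the adjusted p, Cct8 turned sign with scaling (log2 ratio -0.11 in the main test, 0.020 with TMM and 0.026 with median of ratios). Exons of Tcp1, Cct7 and Cct8 overlap genes on the opposite strand (Acat3 and Mrpl18, 1700040I03Rik, and Usp16), and some of the Tcp1 estimate is fractional.

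Actin and tubulin, the main clients of CCT, were read beside it. Of 13 tested, 6 rose by the adjusted p alone (14.5% of all genes), 4 fell (24.1% of all genes), none was called (2.81% of all genes higher, 7.98% lower), and the median log2 ratio was 0.22. Tubb6 was the highest with 805 and 1084 reads (log2 ratio 0.61, 0.48 to 0.75), and Tubb4b the lowest with 4746 and 2248 reads (-0.89, -0.97 to -0.82). All of these genes but Tuba4a have fractional estimates, so reads were divided between similar genes and the level of each is less certain. Their summed share of reads was 1.01% (1.00 to 1.02) in the control and 1.00% (0.995 to 1.01) in the HTL library. Of the 4 prefoldin subunits, which carry actin and tubulin to CCT, none was past the adjusted p (14.5% of all genes were higher and 24.1% lower). Pfdn1 had 664 and 665 reads (log2 ratio 0.19, 0.030 to 0.34) and Pfdn2 had 1437 and 1142 reads (-0.15, -0.26 to -0.033), so both counting intervals left out 0. Pfdn4 had 413 and 335 reads (-0.12, -0.33 to 0.095) and Vbp1 had 709 and 589 reads (-0.082, -0.24 to 0.078). TMM and median of ratios placed Pfdn1 past the adjusted p on the higher side.

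**Figure D3:**
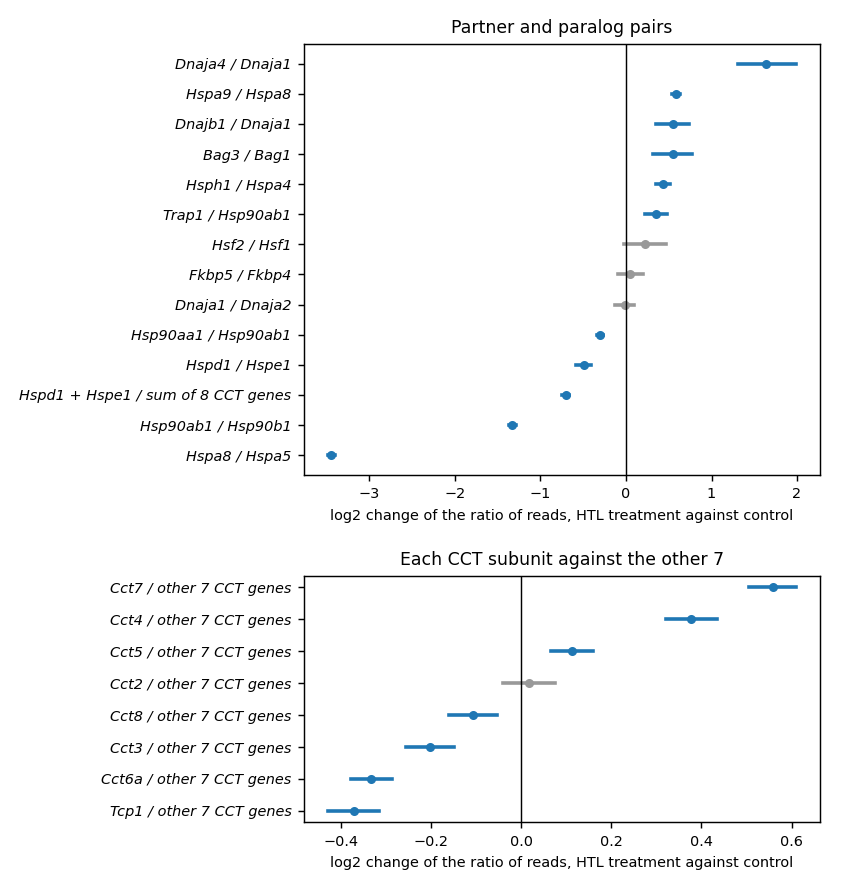
The log2 change of the ratio of reads of 2 genes or sums (HTL treatment against control, x axis) for 14 partner and paralog pairs above and for each CCT subunit against the other 7 below. Points are estimates with 95% intervals for counting error, blue where the exact Fisher test was past the adjusted p and grey where it was not. Cct7 (0.56) and Tcp1 (-0.37) mark the ends of the CCT range, and the widest change above is that of Hspa8 against Hspa5 (-3.45).

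Co-chaperones of HSP70 included the gene nearest to the size cutoff from below. Bag3 (gene ID 29810, NCBIM37 chr7:135667097-135690491, plus strand) had 369 reads (13.63 FPKM) in the control and 611 reads (25.61 FPKM) in the HTL library. It rose 1.88-fold (log2 ratio 0.91, 0.72 to 1.10, exact binomial adjusted p = 2.12e-21) and was called under TMM (1.04), upper quartile (1.01) and median of ratios (1.05) scaling. Bag1, which links HSP70 to the proteasome, had 924 and 1049 reads and rose (log2 ratio 0.37, 0.24 to 0.50), and the ratio of Bag3 to Bag1 rose by 0.54 (0.31 to 0.78). St13, which steadies the client-bound state of HSP70, had 5458 and 4209 reads and fell by the adjusted p alone (log2 ratio -0.19, -0.25 to -0.13), though not under the 3 other scalings. Stub1, the ubiquitin ligase that marks chaperone clients, had 528 and 444 reads (log2 ratio -0.064, -0.25 to 0.12).

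Of the 6 co-chaperones of HSP90, 2 were higher (14.5% of all genes), 2 were lower (24.1% of all genes) and 2 were not past the adjusted p. The counts were 4 higher and 2 lower with TMM and 4 and 1 with median of ratios. The immunophilins of steroid receptor complexes rose together: Fkbp4 had 10847 and 11089 reads (log2 ratio 0.22, 0.18 to 0.26), Fkbp5 had 783 and 829 reads (0.27, 0.13 to 0.41), and the ratio of Fkbp5 to Fkbp4 had a log2 change of 0.050 (-0.097 to 0.20) that was not past the threshold. Ptges3, which closes the ATP-bound state of HSP90, had 3500 and 2502 reads and fell by 0.30 on the log2 scale (interval -0.37 to -0.22, exact binomial adjusted p = 1.42e-14). Ahsa1, the activator of its ATPase, had 2426 and 1743 reads and fell by 0.29 (-0.38 to -0.20), past the adjusted p under every scaling except median of ratios. Stip1, which joins HSP70 to HSP90, had 15656 and 13249 reads (log2 ratio -0.055, -0.089 to -0.022, exact binomial adjusted p = 0.00279), and Cdc37, the adaptor for kinases, had 5168 and 4493 reads (-0.016, -0.074 to 0.041). TMM and median of ratios scaling placed both of these past the adjusted p on the higher side.

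A list of 14 of the 46 genes that cytosolic heat stress is known to induce held Hspa1a, Hspa1b, Hspa8, Hsp90aa1, Hsph1, Hspa4l, Hspb1, Dnaja1, Dnajb1, Dnajb4, Bag3, Stip1, Ahsa1 and Fkbp4. Of the 12 tested, none was called (2.81% of all genes were called higher and 7.98% lower), 5 rose by the adjusted p alone (Bag3, Dnajb1, Hspb1, Hsph1 and Fkbp4; 14.5% of all genes did), 3 fell (Hsp90aa1, Ahsa1 and, with a sign that turned under median of ratios, Dnaja1; 24.1% of all genes) and 4 were not past it. The counts were 7 and 2 with TMM, 6 and 2 with upper quartile and 7 and 1 with median of ratios, and Dnaja1 was not past it under any of these. The list leaves out Hspd1, Hspe1 and Dnaja4, which heat can also induce. With them added after the values were seen, 6 of 15 tested rose, Dnaja4 being called, 5 fell, and the median was -0.0036. For the list of 14 as first given, the median log2 ratio was 0.000090, or 0.14 above the median gene, and the summed share of reads was 1.19% (1.18 to 1.20) in the control and 1.18% (1.17 to 1.19) in the HTL library.

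Chaperone genes and related factors of the same compartments beyond the 46 were read from lists of the pathway. These lists also hold genes that are not chaperones, such as those of mitochondrial import and mitochondrial proteases. Of 97 such genes, 93 were in the table and 86 were tested. Of these, 1 was called higher (2.81% of all genes tested) and 4 lower (7.98% of all genes), with a median log2 ratio of -0.089. The gene called higher was Hsbp1, which binds heat shock factor 1 and restrains it, with 385 and 751 reads (log2 ratio 1.15, 0.97 to 1.33). Those called lower were Chordc1, an HSP90 co-chaperone, with 1454 and 629 reads (-1.02, -1.16 to -0.89), Dnajc30 of mitochondria with 145 and 62 reads (-1.03, -1.49 to -0.60), and the HSP70 relatives Hspa1l with 73 and 12 reads (-2.37, -3.44 to -1.53) and Hspa12b with 58 and 11 reads (-2.17, -3.29 to -1.27). Hspa1l shares sequence with Hspa1a and Hspa1b and has fractional estimates, so its level is uncertain.

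No gene was called among 16 other cytosolic J-domain proteins (2.81% of all genes were called higher and 7.98% lower), where Dnajc9, a histone chaperone, was the highest (565 and 805 reads, log2 ratio 0.70). Likewise none was called among 14 other prefoldin and chaperonin helpers, from Pdrg1 (91 and 151 reads, 0.91) to Uri1 (689 and 309 reads, -0.97). The 31 proteasome subunits tested, which degrade what is not refolded, had none called, 8 higher (14.5% of all genes) and 6 lower (24.1% of all genes) by the adjusted p alone and a median of 0.020, from Psmb5 (1164 and 1550 reads, 0.60) to Psmc6 (1383 and 854 reads, -0.51).

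The chaperones of the ER gave the contrast. Of 19 tested, 13 were called higher (2.81% of all genes) and none lower (7.98% of all genes), with a median log2 ratio of 1.42 against -0.048 for the 44 genes. Their summed reads went from 49720 to 157933, from 0.480% (0.476 to 0.485) to 1.74% (1.73 to 1.74) of the library. Hspa5, the HSP70 of the ER, had 6184 and 59487 reads (log2 ratio 3.45, 3.41 to 3.49), and Manf, a small ER protein that binds Hspa5, had 1636 and 8683 reads (2.59, 2.52 to 2.67).

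In the HSP70 and HSP90 pairs compared, the ER gene and the cytosolic gene were closer in level in the HTL library than in the control. The FPKM of Hspa8 was 12.8 times that of Hspa5 in the control and 1.18 times in the HTL library, a log2 change of the read ratio of -3.45 (-3.49 to -3.41). The FPKM of Hsp90ab1 was 9.86 times that of Hsp90b1, the HSP90 of the ER, in the control and 3.93 times in the HTL library (-1.33, -1.37 to -1.29). Hyou1, another ER chaperone, went from 104.91 to 314.5 FPKM and Hsph1 of the cytosol from 99.76 to 124.32, so these moved apart. Of the 23 pairs and sums compared, 18 were past the adjusted p over pairs. The share among pairs of other genes of like depth was not computed, so this count says nothing particular to chaperones. Of the 23, 8 set a CCT subunit against the other CCT genes, so these 8 depend on each other. The 5 not past it were Hsf2 to Hsf1, Fkbp5 to Fkbp4, Dnaja1 to Dnaja2, Cct2 to the other CCT genes, and 1 sum. That was the sum of Hspa1a and Hspa1b to Hspa8, which rested on 2 reads in each library.

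**Figure D4:**
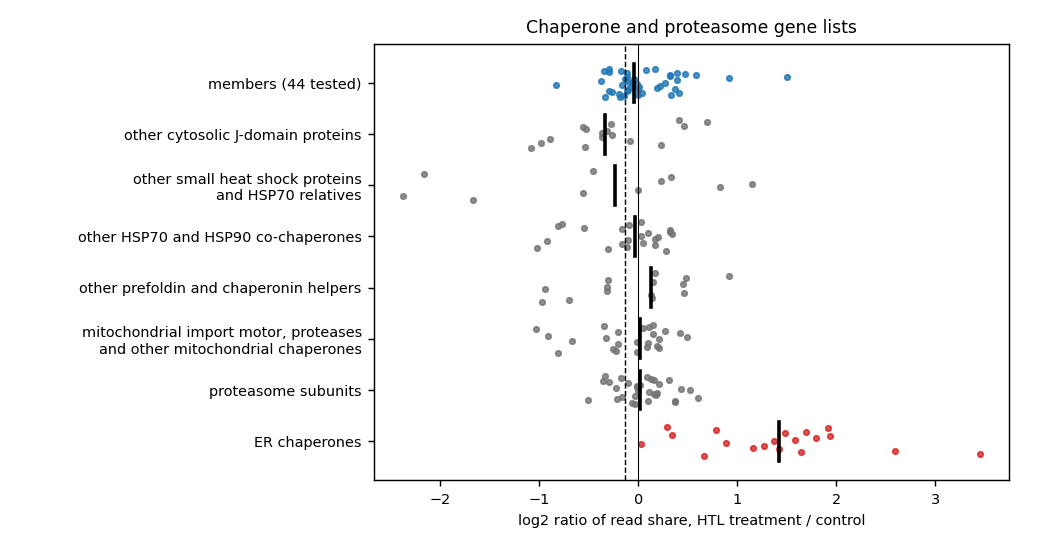
The log2 ratio of read share (HTL treatment over control, x axis) of each tested gene, 1 point per gene, in 8 lists on the y axis, with heights within a row spread for visibility only. Black bars are list medians, the dashed line is the median of all genes tested (-0.14) and the thin line is 0. The median is -0.048 for the 44 cytosolic and mitochondrial chaperone genes, 0.020 for the proteasome and 1.42 for the ER chaperones.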

How the data were processed

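Per the labels, libraries were made from total RNA with an Illumina TruSeq kit and run on BGISEQ. The authors aligned reads to mouse genome and gene sequences and used RSEM to estimate reads per gene, as the study's methods say. The submitters' processing notes list mm9, and the mapper, its version, the annotation release and strand use are not given in the sources used here. The authors deposited a table of estimated counts, not normalized, which RSEM can divide between similar genes, so that some are fractional (5 of the 46 genes). They also deposited FPKM, scaled to transcript length and library size. The deposited log2 ratio, p-value and FDR columns hold the authors' own comparison and were not used.

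Estimated counts were rounded to whole reads, genes with at least 10 reads over both libraries were tested (13442; 3361 were left out), and a gene's reads were compared with the library totals by a two-sided exact conditional binomial test with Benjamini-Hochberg adjustment over all of them. Log2 ratios had 0.5 read added, scaled to library totals. Intervals of single genes and of read shares are 95% Clopper-Pearson, and those of gene pairs are 95% conditional intervals of the odds ratio. All cover counting error only, since reads carried no molecular identifiers. Gene pairs were compared by the two-sided exact Fisher test, adjusted over the 23 pairs. A model of replicate spread could not be fitted. Steps were tested on simulated data. The groups came from the sample titles. The genes, lists and pairs were chosen with earlier results of these data known. Genes named in the text were every called one, the highest and lowest of each role group, every member of a pair, those with under 10 reads, and, in other lists, up to 2 called rises and 2 falls or else the highest and lowest. A result that this rule would name is not reported here. All other members were added so that each is accounted for. Positions are from the GENCODE annotation of NCBIM37, in which 45 of the 46 were found, 14 with exons overlapping a gene on the opposite strand. Alternatives covered scaling, filters, cutoffs, an assumed biological spread, transcript length and the sum of Hspa1a and Hspa1b. Python 3.11.15, SciPy 1.17.1, NumPy 2.4.6, pandas 2.3.3, matplotlib 3.10.9, R 4.3.3, edgeR 4.0.16 and, for size factors only, DESeq2 1.42.0 were used.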

Additional observations from a re-analysis of the deposited data

How the results depend on the processing

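No paired analysis was possible because control and HTL have 1 library each, so no library could be left out. The count of genes called higher went from 1 to 2 with TMM, upper quartile and median of ratios scaling and after centring on transcript length, where Bag3 joined Dnaja4. It was 3 at a 1.5-fold cutoff, 0 at a log2 size cutoff of 2, and 0 when cultures were assumed to vary biologically by 0.2 or 0.4 (coefficient of variation). The count called lower went from 0 to 1 at 1.5-fold, which added Hspd1. By the adjusted p alone, the count higher went from 15 to 2 at an assumed variation of 0.1 and to 0 at 0.2 and 0.4. The count lower went from 13 to 7 with TMM, 8 with upper quartile and 6 with median of ratios, and to 1, 0 and 0 at the 3 assumed variations. The median log2 ratio of -0.048 became 0.082 with TMM, 0.046 with upper quartile, 0.089 with median of ratios and 0.049 after centring on length. Genes past the adjusted p whose sign turned were Hspa4 (0.017 TMM, 0.023 median of ratios, 0.088 centred), Dnaja1 (0.0033 median of ratios, 0.035 centred) and Cct8 (0.020 TMM, 0.026 median of ratios, 0.0027 centred). No other gene past the adjusted p turned sign under these settings, with 5 reads added or from FPKM. Over all genes tested, 378 higher and 1072 lower became 553 and 798 with TMM, 296 and 831 at an assumed variation of 0.1, 38 and 82 at 0.2, 1 and 5 at 0.4, 991 and 2173 at 1.5-fold, and 74 and 213 at the log2 cutoff of 2. By the adjusted p alone, 1955 and 3238 became 381 and 976 at an assumed variation of 0.1. Counts per role group under each scaling, and the heat-inducible list with Hspd1, Hspe1 and Dnaja4, were added after seeing the data. Counts under the other filters and with Hspa1a and Hspa1b summed were within 1.5 times the main ones. The cause of these changes was not tested. With 2 reads, depth cannot show a difference in Hspa1a or Hspa1b.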
